A study of Mus musculus with 6 samples.

Results

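Genes of glucose use, amino acid uptake and mTOR control were compared between Ly-6C-negative and Ly-6C-positive naive CD4 T cells. Ly-6C is a lipid-anchored surface protein of the Ly6 family. The set was a written list of 38 genes, grouped by function. Of these, 35 were measured here, among 19938 genes in all. Each was read from the probe set of the highest mean among those whose platform annotation names that gene alone. Gpi1, Gapdh and Eno1 are not analysed here as members.

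The mice were C57BL/6 Foxp3-GFP animals, 6 weeks old, and the cells were sorted from their peripheral lymph nodes. In this strain green fluorescence reports Foxp3, the regulatory T cell factor. All 6 arrays held cells that were CD4+, CD8-negative, TCRβ+, low for CD44, and negative for CD25 and Foxp3. Of them, 3 arrays held the Ly-6C-positive fraction and 3 the Ly-6C-negative fraction. No treatment is named in the labels beyond the bead enrichment and sort that both fractions shared. Arrays are labelled as biological replicates, but the mice behind each are not named, so p-values measure the spread between these samples.

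Glucose enters T cells through carriers such as Slc2a1 and Slc2a3, is trapped by hexokinase, and is broken down by the glycolytic enzymes to pyruvate, which lactate dehydrogenase reduces to lactate or the mitochondria oxidise. The kinase mTOR, as part of mTORC1, senses amino acids and growth signals; the GTPase Rheb switches it on, and the Tsc1-Tsc2 complex, Ddit4 and the sestrins hold it back. Resting naive T cells are known for low glycolysis and low mTOR activity, and both increase when the T cell receptor is engaged.

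No member passed the test between the fractions. With limma and Benjamini-Hochberg adjustment over all genes, 0 of 35 members reached an adjusted p of 0.05, and the smallest was 0.551, for Pdk1. Over all genes 0.145% passed, 29 in number, 0.1% higher and 0.0451% lower. At an unadjusted p under 0.05 there were 2 members, Pdk1 and Aldoa, or 5.71% beside 6.71% of all genes, a share near the background. The differences, always Ly-6C-negative minus Ly-6C-positive on the log2 scale, ran from -0.29 for Pdk1 to 0.19 for Sesn3.

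Those differences were also bounded. The 95% interval of the difference lay inside plus or minus 0.5 on the log2 scale for all 35 members, as for 97.3% of all genes. The intervals are per gene and not adjusted for the number of genes. The median difference of the members was 0.039, and that of all genes was -0.0048. Of the members 21 lay above 0 and 14 below, and 47.8% of all genes lay above 0. With array medians subtracted these became 23 members and 57.3% of all genes. Among genes with a mean above that of the median gene, 20 of 32 members lay above 0, beside 54.4% of those genes. The median difference of those genes was 0.0099. In sorted populations, fewer cells of a type and less RNA per cell cannot be told apart.

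**Figure D1:**
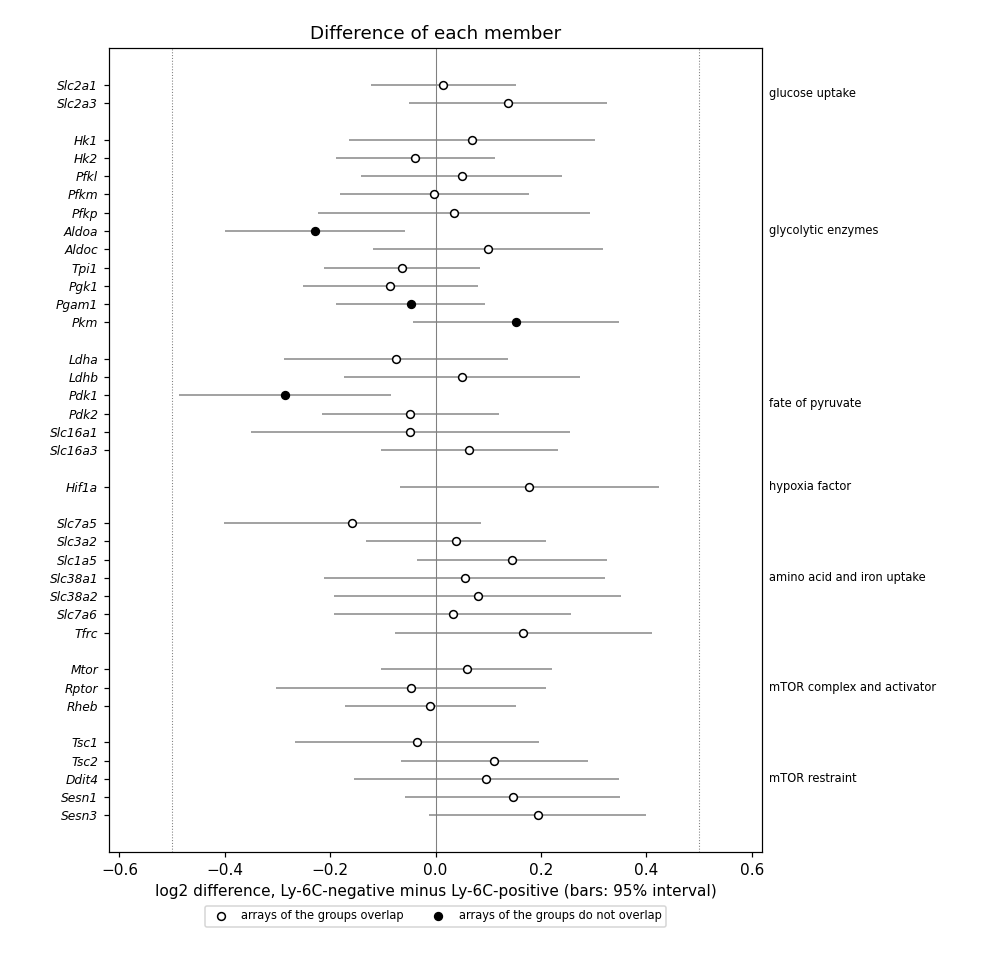
Log2 difference of each of the 35 measured members, Ly-6C-negative minus Ly-6C-positive, with the 95% interval of the limma fit as bars and dotted lines at plus and minus 0.5. Filled points mark Aldoa, Pgam1, Pkm and Pdk1, whose 3 arrays per group do not overlap; every interval lies between the dotted lines.

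The arrays and the sort set the frame for these values. The array medians ran from 6.25 to 6.29, and precision is limited by the 3 arrays per group. Arrays correlated across genes with r from 0.993 to 0.998 within a group and from 0.994 to 0.997 between groups. Ly-6C-negative replicate 2 stood apart on the first principal component, with a score of 19.9, while the other 5 arrays lay between -10.0 and -0.26. The 8 measured CD4 T cell markers, Cd3d, Cd3e, Cd3g, Cd4, Cd28, Ccr7, Lef1 and Il7r, lay above at least 96.7% of all genes by mean. Of 33 measured markers of CD8 T, NK, B, myeloid, dendritic, stromal and erythroid cells none passed the limma threshold, and 4, or 12.1%, had an unadjusted p under 0.05 beside 6.71% of all genes. These were Eomes at 0.27, Lyz2 at 0.25, Fcgr3 at -0.19 and Fcer1g at -0.17. The mean over the 5 B cell markers ran from 5.16 to 5.19 in Ly-6C-positive arrays and from 5.12 to 5.18 in Ly-6C-negative arrays. The 8 myeloid markers averaged 5.06 to 5.14 and 5.02 to 5.08. Higher levels were found for the 2 CD8 T cell markers, at 7.06 to 7.20 and 6.92 to 7.14. So it was for the 6 stromal and endothelial markers, at 6.81 to 6.92 and 6.84 to 6.90. The highest genes of these 2 lists, Cd8b1 and Pecam1, lay above 75.0% and 93.8% of all genes by mean. Cd44, a gene of the gate, measured 7.23 against 6.98, a difference of -0.25 (limma adjusted p = 0.427). The part of these markers in the member values was not tested.

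Pdk1 and Aldoa had the lowest p of the members, and a pathway gene outside the list, Pfkfb3, lay on the other side of 0; none of the 3 passed. Textbooks name all 3 as targets of HIF-1, whose core binding letters are ACGTG or GCGTG. For that reason 250 bases before a start site of each are shown, the start site being one whose window held the most of these letters for its gene, from RefSeq on GRCm38.p6, written 5′ to 3′, with these letters and their reverse complements CACGT and CACGC in capitals. The window of Aldoa is chr7:126799255-126799504, minus strand, the second of 3 listed start sites. That of Pdk1 is chr2:71872974-71873223, plus strand, the first of 2, and that of Pfkfb3 is chr2:11502091-11502340, minus strand, the second of 2.
Aldoa: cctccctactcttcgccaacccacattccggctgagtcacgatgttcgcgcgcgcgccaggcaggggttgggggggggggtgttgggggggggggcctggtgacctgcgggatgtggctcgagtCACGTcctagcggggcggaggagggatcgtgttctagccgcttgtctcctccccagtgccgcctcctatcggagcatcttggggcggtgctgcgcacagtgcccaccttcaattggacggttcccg
Pdk1: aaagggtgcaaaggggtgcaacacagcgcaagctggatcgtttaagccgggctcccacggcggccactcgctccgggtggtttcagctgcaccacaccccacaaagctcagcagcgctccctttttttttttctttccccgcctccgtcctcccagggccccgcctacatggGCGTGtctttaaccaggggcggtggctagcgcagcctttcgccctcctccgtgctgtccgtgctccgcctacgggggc
Pfkfb3: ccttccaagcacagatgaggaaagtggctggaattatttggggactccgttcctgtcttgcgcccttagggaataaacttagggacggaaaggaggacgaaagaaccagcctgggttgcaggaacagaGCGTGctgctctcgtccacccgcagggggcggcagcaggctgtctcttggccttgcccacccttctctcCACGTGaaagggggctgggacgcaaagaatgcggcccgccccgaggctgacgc
The printed Aldoa and Pdk1 windows held 1 match each and the printed Pfkfb3 window 3, where the E-box letters CACGTG count as 2 overlapping matches. The first Aldoa window and the second Pdk1 window held 0 matches, and the third Aldoa window, which overlaps the printed one, and the first Pfkfb3 window held 1 each. Start sites were listed for 34 of the 38 genes, and 38 of their 50 windows held a match, or 76%, beside 38.6% of all 32851 windows of the same length. Base composition was not matched. Windows of 1 gene can overlap and then count the same letters more than once, and the windows cover 27026 genes and not the 19938 measured. The share describes the list and does not compare the fractions. A match is a description of the letters and not a site. Other members held more matches in a window, with 5 for Ldha and 4 for Slc16a1, and these differed by -0.075 and -0.048. Sesn3, with 0 matches, differed by 0.19. A link between the matches and the differences was not tested.

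Pdk1 encodes a pyruvate dehydrogenase kinase, which restrains the oxidation of pyruvate in the mitochondria. Its probe set 10472846 measured 9.56, 9.53 and 9.69 in Ly-6C-positive replicates 1, 2 and 3, and 9.31, 9.14 and 9.46 in Ly-6C-negative replicates 1, 2 and 3. All Ly-6C-negative arrays lay below all Ly-6C-positive arrays, and replicate 2 was the lowest. The means were 9.59 ± 0.083 (SD, n = 3) and 9.31 ± 0.16 (SD, n = 3). The difference of -0.29 had a standard error of 0.090, a fold of 1.22, and did not pass (limma adjusted p = 0.551). Over the alternatives its limma adjusted p ran from 0.287 to 0.949.

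Aldoa encodes the main aldolase of most tissues, which splits fructose bisphosphate. Probe set 10568050 measured 9.87, 10.03 and 10.02 in the Ly-6C-positive arrays and 9.79, 9.79 and 9.65 in the Ly-6C-negative arrays. The groups did not overlap, with a gap that was narrow between Ly-6C-positive replicate 1 and the nearest Ly-6C-negative arrays. The difference was -0.23 and its standard error 0.076, a fold of 1.17 (limma adjusted p = 0.588). Its limma adjusted p over the alternatives ran from 0.391 to 0.996.

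**Figure D2:**
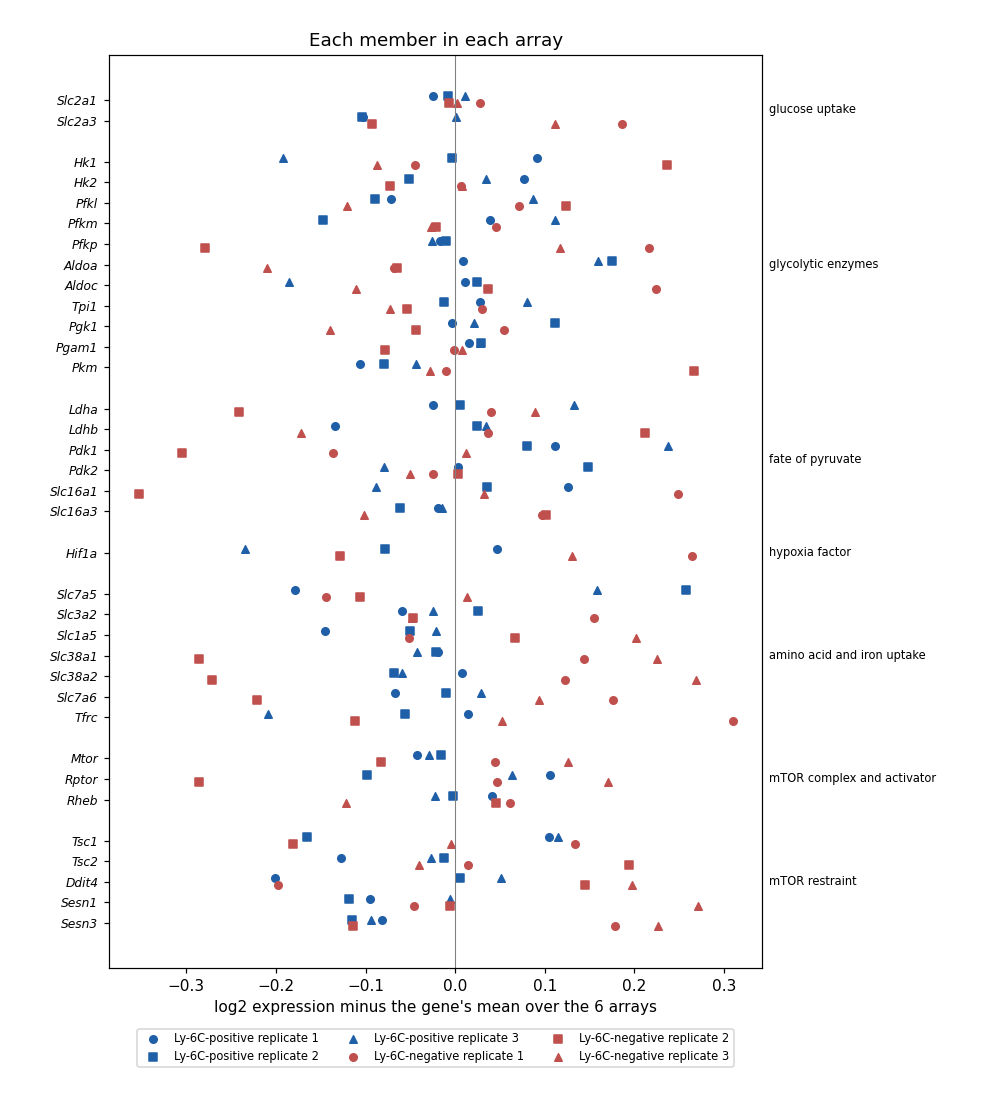
Log2 expression of each member in each of the 6 arrays, minus that gene's mean over the arrays, in the order of the members' roles; blue points are Ly-6C-positive, red points Ly-6C-negative, and circles, squares and triangles are replicates 1, 2 and 3. The red points of Slc38a1, Slc38a2, Slc7a6 and Pfkp lie on both sides of the blue ones, with Ly-6C-negative replicate 2 the lowest of the 6.

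The glucose carriers came first in the pathway. Slc2a1, the carrier GLUT1, measured 7.93, 7.95 and 7.97 in the Ly-6C-positive arrays and 7.98, 7.95 and 7.96 in the Ly-6C-negative arrays. The 6 values overlapped within a narrow band, with a difference of 0.015 and a 95% interval from -0.12 to 0.15. Slc2a3, the carrier GLUT3, measured 7.51, 7.51 and 7.62 against 7.80, 7.52 and 7.73. Replicates 1 and 3 of the Ly-6C-negative cells lay above all Ly-6C-positive arrays and replicate 2 among them. The difference was 0.14 ± 0.084 (SE, limma adjusted p = 0.842).

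Hexokinases phosphorylate glucose on entry. Hk2, the inducible isoform, measured 5.36, 5.23 and 5.32 against 5.29, 5.21 and 5.29, with overlapping groups and a difference of -0.039 whose interval ran from -0.19 to 0.11. Its mean of 5.28 lay below the mean of 6.37 of the median gene, as did those of Aldoc and Pdk2. Hk1, the isoform common in most cells, was read by the rule from probe set 10414661, at 12.32, 12.22 and 12.03 against 12.18, 12.46 and 12.14. That probe set is annotated through a single transcript record, and all 16 probe sets listed under both Hk1 and the ribosomal protein gene Rpl17 carry the same record, so its assignment to Hk1 is uncertain. The other Hk1 probe set, 10369541, rests on 8 records and measured 8.12, 8.09 and 8.30 against 8.22, 8.29 and 8.31, a difference of 0.10 with a standard error of 0.075. Neither probe set separated the groups.

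The phosphofructokinase genes, which encode the committed step, had differences smaller than their standard errors. They were 0.049 for Pfkl, -0.0023 for Pfkm and 0.036 for Pfkp (limma adjusted p from 0.953 to 0.999). Pfkp, the platelet-type subunit, measured 9.40, 9.40 and 9.39 in the Ly-6C-positive arrays but 9.63, 9.13 and 9.53 in the Ly-6C-negative arrays. Its 3 Ly-6C-positive arrays thus lay inside the range of the Ly-6C-negative ones.

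Among the enzymes further down, Pkm and Pgam1 had groups that did not overlap. Pkm, whose product pyruvate kinase makes pyruvate, measured 9.74, 9.77 and 9.81 against 9.84, 10.12 and 9.82. Ly-6C-negative replicate 2 was far above the rest, the reverse of its place for Pdk1, and the difference was 0.15 ± 0.087 (SE, limma adjusted p = 0.828). Without that array the Pkm difference was 0.057. Pgam1, a phosphoglycerate mutase gene, measured 7.34, 7.36 and 7.36 against 7.33, 7.25 and 7.34. The 0.048 by which its mean was lower is smaller than its standard error of 0.063. A second Pgam1 probe set held identical values, and another, 10497321, differed by 0.050 in the other direction.

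In all 4 members, 3 lower and 1 higher, had groups that did not overlap, or 11.4% beside 12.6% of all genes, of which 6.5% were lower and 6.12% higher. Over the alternatives this count fell to 2 after a second quantile normalization, beside 12% of all genes, and reached 13 without Ly-6C-negative replicate 2, beside 27%. It was 7 without Ly-6C-positive replicate 3, and 8 or 9 without Ly-6C-negative replicate 1 or 3, beside 21.1%, 21.8% and 24.3%. The remaining glycolytic members, Aldoc, Tpi1 and Pgk1, differed by 0.10, -0.064 and -0.086 with overlapping groups. Pgk1 was read from 1 of 3 probe sets, of which 2 hold identical values, and near-identical copies of this gene cannot be told apart. Gapdh is listed in 25 probe sets, each shared with other gene models; their differences ran from -0.044 to 0.038, and none passed over all probe sets (smallest limma adjusted p = 0.951).

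The genes that set the fate of pyruvate, other than Pdk1, had differences smaller than their standard errors. Ldha, which favours lactate formation, measured 9.75, 9.78 and 9.91 against 9.82, 9.53 and 9.86. Ly-6C-negative replicate 2 was the lowest array and the other 2 lay within the Ly-6C-positive range, with a difference of -0.075 and a 95% interval from -0.29 to 0.14. Ldhb, Pdk2, Slc16a1 and Slc16a3 differed by 0.050, -0.048, -0.048 and 0.064. The last pair encodes the lactate carriers MCT1 and MCT4. Slc16a1 was the member with the widest spread in Ly-6C-negative cells, from 6.76 in replicate 2 to 7.37 in replicate 1, around the Ly-6C-positive range of 7.03 to 7.24.

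Hif1a, the oxygen-regulated subunit of HIF-1, measured 9.98, 9.85 and 9.70 against 10.20, 9.80 and 10.06. Ly-6C-negative replicates 1 and 3 were the highest of the 6 arrays, while replicate 2 lay among the Ly-6C-positive ones. The difference was 0.18 with a standard error of 0.11, a fold of 1.13 (limma adjusted p = 0.842). Without Ly-6C-negative replicate 2 it was 0.29, which did not pass either (limma adjusted p = 0.395). Over all alternatives the Hif1a difference ran from 0.090 to 0.29, and its limma adjusted p reached 0.998.

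Of the 7 genes of amino acid and iron uptake 6 lay above 0 and 1 below, and none passed. Slc7a5, the light chain of the large neutral amino acid carrier LAT1, measured 8.11, 8.55 and 8.45 against 8.15, 8.19 and 8.31. It was the member below 0, at -0.16 ± 0.11 (SE, limma adjusted p = 0.873), and Ly-6C-positive replicate 1 was the lowest array of all. Slc3a2, the heavy chain CD98 that pairs with it, measured 9.63, 9.71 and 9.66 against 9.84, 9.64 and 9.64. Here Ly-6C-negative replicate 1 alone stood above the other arrays, and the difference was 0.039 with a 95% interval from -0.13 to 0.21.

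Tfrc, the transferrin receptor gene through which cells take up iron, measured 9.04, 8.97 and 8.82 against 9.34, 8.91 and 9.08. Replicate 2 of the Ly-6C-negative cells fell inside the Ly-6C-positive range and the other 2 lay above it. The difference was 0.17 ± 0.11 (SE, limma adjusted p = 0.854). For Slc1a5, the glutamine carrier ASCT2, the difference was 0.14 and its standard error 0.080 (limma adjusted p = 0.819).

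Slc38a1, Slc38a2 and Slc7a6 shared a pattern over the arrays. The first pair encodes sodium-coupled neutral amino acid carriers and the other a light chain partner of Slc3a2. Slc38a2 measured 11.20, 11.12 and 11.13 in the Ly-6C-positive arrays and 11.31, 10.92 and 11.46 in the Ly-6C-negative arrays. Replicates 1 and 3 of the Ly-6C-negative cells were above all Ly-6C-positive arrays and replicate 2 below all of them, and the same order held for Slc38a1 and Slc7a6. The mean differences were 0.055, 0.080 and 0.032 for Slc38a1, Slc38a2 and Slc7a6, with SDs of 0.27, 0.28 and 0.21 in Ly-6C-negative cells against 0.013, 0.042 and 0.048 in Ly-6C-positive cells (n = 3 each). A second probe set of Slc38a1, 10431872, did not share it, with 9.50, 9.68 and 9.55 in the Ly-6C-negative arrays.

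The kinase, its Raptor subunit and its activator had differences smaller than their standard errors. Mtor measured 7.74, 7.76 and 7.75 against 7.82, 7.70 and 7.91, a difference of 0.059 with a 95% interval from -0.10 to 0.22. Rptor, whose product presents substrates to mTORC1, measured 7.48, 7.28 and 7.44 against 7.42, 7.09 and 7.55, a difference of -0.046. In both genes Ly-6C-negative replicate 2 was the lowest array and replicate 3 the highest. Rheb differed by -0.010 with a 95% interval from -0.17 to 0.15.

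Of the 5 genes that hold mTOR back, 4 lay above 0 and none passed, with a median difference of 0.11. Sesn3, a sestrin gene induced by FoxO factors, measured 9.64, 9.60 and 9.63 against 9.90, 9.60 and 9.95. Ly-6C-negative replicates 1 and 3 lay above every Ly-6C-positive array, and replicate 2 was close to the lowest of them. The difference was 0.19 ± 0.092 (SE, limma adjusted p = 0.763), and without replicate 2 it was 0.30 (limma adjusted p = 0.205, the smallest among the alternatives for this gene). Over all alternatives the Sesn3 difference ran from 0.13 to 0.30.

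Sesn1, a sestrin gene that p53 and FoxO factors induce, measured 9.36, 9.34 and 9.45 against 9.41, 9.45 and 9.73. Ly-6C-negative replicate 3 was the array that stood above the rest, and the difference was 0.15 ± 0.091 (SE, limma adjusted p = 0.842). Ddit4, the stress-induced inhibitor REDD1, measured 7.20, 7.41 and 7.45 against 7.20, 7.54 and 7.60. Replicate 1 was the lowest of its group in both fractions, and the difference was 0.096 with a 95% interval from -0.16 to 0.35.

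The complex of Tsc1 and Tsc2 shuts Rheb off. Tsc1 measured 7.83, 7.56 and 7.84 against 7.86, 7.54 and 7.72, and Tsc2 measured 6.95, 7.07 and 7.05 against 7.09, 7.27 and 7.04. Replicate 2 was the lowest array of each fraction for Tsc1, and Ly-6C-negative replicate 2 the highest array for Tsc2. The differences were -0.035 and 0.11, with overlapping groups in both genes.

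Members varied more among Ly-6C-negative arrays than among Ly-6C-positive arrays. The SD over 3 arrays was larger in the Ly-6C-negative group for 29 of 35 members, or 82.9%, beside 61.6% of all genes. Its median was 0.16 in Ly-6C-negative and 0.065 in Ly-6C-positive cells, beside 0.095 and 0.074 for all genes. All members but Hk2, Aldoc and Pdk2 lay above the median gene by mean, and the spread of genes of like level was not computed. Ly-6C-negative replicate 2 held the lowest value of the 6 arrays for 12 members and the highest for 6. The 12 were Hk2, Pfkp, Pgam1, Ldha, Pdk1, Slc16a1, Slc38a1, Slc38a2, Slc7a6, Mtor, Rptor and Tsc1, and the 6 were Hk1, Pfkl, Pkm, Ldhb, Slc16a3 and Tsc2. Over all genes this array was the lowest for 24.4% and the highest for 20.6%. Ly-6C-negative replicate 1 was the highest for 11 members and the lowest for 0, beside 17.3% and 14.7% of all genes. Members share arrays and are not replicates, so these shares carry no test.

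**Figure D3:**
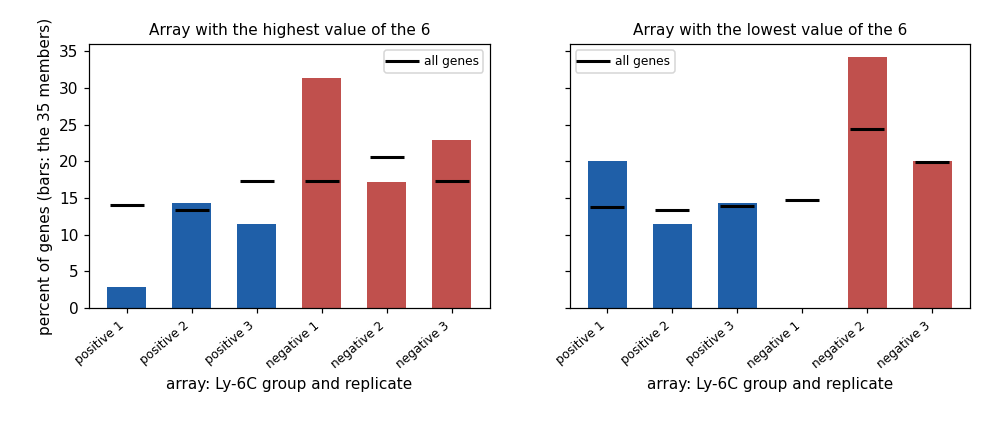
Percent of the 35 members for which each array held the highest (left) or the lowest (right) of the 6 values, as bars (blue, Ly-6C-positive; red, Ly-6C-negative), with black marks for all genes. Ly-6C-negative replicate 2 was lowest for 12 members and Ly-6C-negative replicate 1 for none.

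Leaving out Ly-6C-negative replicate 2 changed the count at an unadjusted p under 0.05 most. It rose from 2 to 9 members, or 25.7% beside 9.47% of all genes, and no member passed the adjusted threshold. Of the 9, 7 were higher, namely Slc2a3, Pfkp, Hif1a, Slc38a1, Slc38a2, Tfrc and Sesn3, and 2 were lower, Aldoa and Pdk1. Their limma adjusted p ran from 0.205, for Sesn3, to 0.489, for Pdk1. For each of the 7 higher members Ly-6C-negative replicate 2 was the lowest of its group. Leaving it out therefore had to raise their differences, and the share is not separate support for them. The count was 4 without Ly-6C-negative replicate 1, or 11.4% beside 6.05% of all genes, and 6 with array weights, or 17.1% beside 8.87%. It was 1, or 2.86%, without Ly-6C-negative replicate 3, beside 8.36% of all genes, and without Ly-6C-positive replicate 2, beside 5%. The part of that array's overall deviation in these values was not tested.

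Other genes of the pathways were read from 8 further lists, with 160 of 173 genes measured. A single one passed, Slc16a5, a monocarboxylate transporter family gene, which was lower in Ly-6C-negative cells. It measured 7.35, 7.35 and 7.37 in the Ly-6C-positive arrays and 6.64, 6.75 and 6.88 in the Ly-6C-negative arrays. The groups lay well apart relative to their spread, with a difference of -0.60 and a standard error of 0.076, a fold of 1.51 (limma adjusted p = 0.0263). The call was lost without any one of the Ly-6C-positive arrays or without Ly-6C-negative replicate 1, where the limma adjusted p ran from 0.124 to 0.199, while the difference stayed between -0.66 and -0.54 under the alternatives. The 160 genes had a median difference of 0.0088, and 12 of them, or 7.5%, had an unadjusted p under 0.05 beside 6.71% of all genes.

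**Figure D4:**
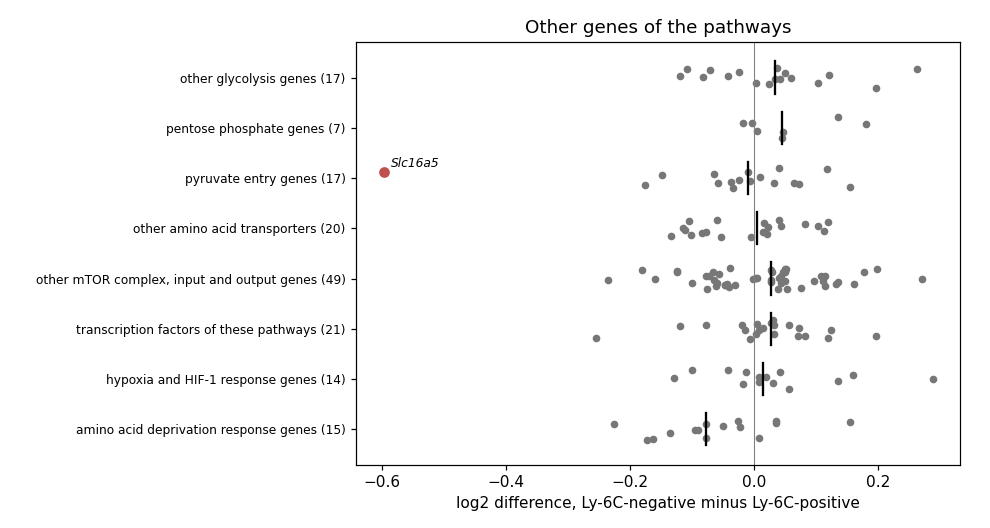
Log2 difference, Ly-6C-negative minus Ly-6C-positive, of the 160 measured other genes of the pathways in 8 lists, with the number measured in brackets and a black line at each list's median. Slc16a5, in red, is the gene past the limma threshold at -0.60.

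Among the other glycolysis genes 0 of 17 passed. Pfkfb3, whose product makes the activator of phosphofructokinase, measured 7.92, 7.92 and 7.95 against 8.18, 8.26 and 8.14. All Ly-6C-negative arrays were above all Ly-6C-positive ones, with a difference of 0.26 and a standard error of 0.065 (limma adjusted p = 0.370). Pfkfb4 and Pgm2 differed by 0.12 and 0.20. The 7 pentose phosphate genes had a median difference of 0.046 with none past the threshold, Rpe at 0.14 and Taldo1 at 0.18 among them.

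Of the 49 other mTOR genes none passed and 28 lay above 0. Deptor, which encodes an mTOR inhibitor, measured 5.58, 5.50 and 5.50 against 5.32, 5.33 and 5.22, a difference of -0.23 (limma adjusted p = 0.480). All 6 Deptor values lay below the mean of 6.37 of the median gene. Rragc, a Rag GTPase gene that relays amino acid signals to mTORC1, differed by 0.20 and Prkab2, an AMPK subunit gene, by 0.27 (limma adjusted p = 0.643 and 0.740). The Deptor and Rragc groups did not overlap; those of Prkab2 did. None of 20 other amino acid transporter genes passed, with Slc43a1 at -0.13, Slc36a1 at 0.10 and Slc6a6 at 0.12.

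Factors and targets around HIF-1 lay on both sides of 0. Epas1, the gene of HIF-2α, differed by -0.25 and Hif1an, the hydroxylase that inhibits HIF, by 0.20, both without overlap of the groups (limma adjusted p = 0.617 and 0.696). Ndrg1, a hypoxia-responsive gene, differed by 0.29, Mxi1 by 0.16 and Bnip3l by 0.14. None of the 21 factors or the 14 hypoxia genes passed the limma threshold. The median differences of these lists were 0.027 and 0.014.

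Genes of the response to amino acid deprivation lay mostly below 0. Of 15 measured, 11 were below 0 and 4, or 26.7%, above, beside 47.8% of all genes above 0. The median was -0.077, and none passed. Ly-6C-positive replicate 2 held the highest of the 6 values for Asns, Trib3, Chac1, Phgdh, Mthfd2, Aldh18a1, Sars, Gars, Cars and Nars. Over all genes that array was the highest for 13.3%. The part of that array in the direction of the list was not tested. Asns, the asparagine synthetase gene, measured 5.53, 5.54 and 5.32 against 5.29, 5.15 and 5.27, a difference of -0.23 (limma adjusted p = 0.632). All 6 Asns values lay below the mean of 6.37 of the median gene. Cars and Shmt2, genes of a cysteinyl-tRNA synthetase and a mitochondrial serine hydroxymethyltransferase, differed by -0.17 and -0.16 (limma adjusted p = 0.667 and 0.742). These 3, named for the smallest p of their list, were the members of it whose groups did not overlap, or 20% of 15 beside 12.6% of all genes.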

How the data were processed

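The authors deposited 1 table of log2 expression values for 28853 probe sets on 6 arrays; RMA and Partek are the tools named, per the submitters' processing notes, without versions. RMA corrects background, equalises the arrays' distributions and summarises each probe set, so a shift common to all genes is lost. Neither the chip description nor the build is given in the sources used here. The values, from 2.47 to 13.6, were used as deposited.

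The platform annotation named the probe sets: 21789 had 1 symbol, 1621 several and 5443 were not listed. Per gene the probe set of highest mean was kept. limma 3.58.1 in R 4.3.3 (lmFit, eBayes, 2-sided, no filter, no covariate) was fitted to all 19938 genes with Benjamini-Hochberg adjustment, and intervals are at 95%. The fit was tested on simulated data with independent noise, no array set apart and shifts larger than any member's difference. That test does not bear on differences as small as those of the members. The members and lists were chosen with earlier results of these data known. Values in every array are given for members with groups that do not overlap or an unadjusted p under 0.05 and for a fixed set of carriers, kinases and regulators; of each further list the up to 3 genes of smallest p are named. Some of these are not printed.

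Same-numbered arrays of both groups had deviations from the group means that correlated across genes with r of 0.129, 0.128 and 0.107. Differently numbered arrays had r from -0.107 to -0.011. Deviations sum to 0 within a group, so these values are not independent. The pattern was read as weak pairing. The labels do not state pairing, so a replicate block was an alternative and not the main fit. The others were a second quantile normalization, subtracted array medians, genes above the median gene, means of probe sets, every probe set, trend and robust settings of eBayes, weights for arrays, each array left out, and an adjusted p of 0.1. Figures used matplotlib 3.10.9 in Python 3.11.15.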

Additional observations from a re-analysis of the deposited data

How the results depend on the processing

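All alternatives were planned, and in none did a member pass the threshold, including an adjusted p of 0.1. With the replicate block 41 genes passed instead of 29, 0 of them members, and the block changed no call among the members or Slc16a5. Array weights gave 54 genes past the threshold, and 6 members at an unadjusted p under 0.05, or 17.1% beside 8.87% of all genes. A second quantile normalization left 2 members without overlap, or 5.71% beside 12% of all genes. Leaving out each array gave 5 to 47 genes past the threshold, 1 to 9 members at an unadjusted p under 0.05 (5% to 9.47% of all genes), 5 to 13 members without overlap (20.8% to 27% of all genes), 0 to 1 pathway genes past the threshold and a median difference of the members from -0.0032 to 0.047. The limits are the 3 arrays per group and dim probe sets.

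Of the 35 members 16 changed sign under some alternative, and none of these was called in any fit. After a second quantile normalization Slc2a1 was at -0.0032. With array medians subtracted Pfkm was at 0.019 and Rheb at 0.011, and with the mean of probe sets Ldhb was at -0.034. With array weights Pfkm was at 0.028, Slc16a1 at 0.055, Rptor at 0.010, Rheb at 0.0011, Tsc1 at 0.040 and, among the other pathway genes, Pgls at -0.028. Leaving out each array, the differences ran from -0.032 to 0.13 for Hk1, -7.7e-05 to 0.12 for Pfkl, -0.076 to 0.053 for Pfkm, -0.064 to 0.18 for Pfkp, -0.14 to 0.027 for Ldha, -0.043 to 0.15 for Ldhb and -0.099 to 0.014 for Pdk2. They ran from -0.18 to 0.12 for Slc16a1, -0.028 to 0.073 for Slc3a2, -0.044 to 0.21 for Slc38a1, -0.034 to 0.24 for Slc38a2, -0.048 to 0.15 for Slc7a6, -0.14 to 0.085 for Rptor, -0.044 to 0.048 for Rheb, -0.13 to 0.047 for Tsc1 and -0.091 to 0.12 for Pgls. The cause of these changes was not tested.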

Other observations

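Probe sets of the same member did not always give the same picture, and the rule of the highest mean decides which one is read. For Ldhb, whose product favours the return of lactate to pyruvate, the probe set used, 10462035, differed by 0.050 and the other, 10549097, by -0.12, with overlapping groups in both. For Pkm the probe set used, 10585932, differed by 0.15 without overlap, and the other, 10528480, by 0.069 with overlap. In the probe set used, Ly-6C-negative replicate 2 measured 10.12 against 9.84 and 9.82 in replicates 1 and 3. In the other it measured 9.44 against 9.54 and 9.48, and so was the lowest of its group. The difference between the probe sets was not tested.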
